A study of Mus musculus with 12 samples.

Results

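The 9 genes Gata4, Gata5, Gata6, Pdx1, Onecut2, Cdx1, Cdx2, Hnf4a and Hnf4g encode transcription factors that set or maintain regional identity along the gut. They were chosen by name, with earlier results of these data known, so that counts of them are not an independent test. Each was read from its 1 probe set that carries exactly 1 gene symbol. They are 9 of the 19938 genes that the arrays name in this way, and all 9 are among the 11923 genes that were kept and tested, because each had an intensity over 50 on at least 1 array. The small intestine of male C57BL/6J mice had been divided into a proximal, a middle and a distal segment, and RNA from scrapings of their mucosa and submucosa was hybridised to Affymetrix Mouse Gene 1.0 ST arrays. Old mice were 21 and young mice 4 months of age, and they received a high-fat diet (HF, 45% of energy from fat, largely palm oil) or a low-fat diet (LF, 10% of energy from fat) for 2 weeks. Before that, all mice had been given chow and then the LF diet, for times that differ between the array labels and the study's methods. Each of the 12 arrays carried RNA pooled from 8 old or 6 young mice, and each group of mice gave all 3 of its segments, so that the arrays stand for 4 pools (old HF, old LF, young HF and young LF). No array has a replicate of the same segment, age and diet.

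In the developing and adult gut, homeodomain proteins of the CDX family make endoderm intestinal, while PDX1 marks the duodenum and the pancreas. GATA4 maintains jejunal character in mouse enterocytes and keeps genes for ileal bile acid absorption silent there, and HNF4 nuclear receptors switch on the genes of mature enterocytes. These factors act together on the same enhancers, and their amounts along the gut differ from one segment to the next.

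Pdx1 and Cdx2 are neighbours on chromosome 5, next to Gsx1, in what is known as the ParaHox cluster, and they changed in opposite directions along the small intestine. Hnf4a has a pair of promoters. The 250 bases before the start of these genes are shown, from RefSeq for GRCm38.p6, each read 5′ to 3′ on the strand of the gene. They were searched for letters bound by GATA, CDX, HNF4 and ONECUT factors, and by HNF1, which is not in the group. No PDX1 letters were searched for. The windows of Pdx1 and Cdx2 lie apart and on opposite strands. Capitals mark matches, on either strand, to GATA letters (AGATAA and AGATAG, also with T as the first letter, as in TGATAA and TGATAG), CDX letters (TTTATG or TTTATT), HNF4 letters (CAAAGTCCA or CAAAGGTCA), ONECUT letters (ATTGAT) or one arm of the HNF1 palindrome (GTTAAT). The windows lie at chr5:147269847-147270096 (plus strand) for Pdx1, chr5:147307250-147307499 (minus strand) for Cdx2, chr2:163506607-163506856 (plus strand) for the upstream Hnf4a promoter and chr2:163546905-163547154 (plus strand) for the downstream Hnf4a promoter.
Pdx1: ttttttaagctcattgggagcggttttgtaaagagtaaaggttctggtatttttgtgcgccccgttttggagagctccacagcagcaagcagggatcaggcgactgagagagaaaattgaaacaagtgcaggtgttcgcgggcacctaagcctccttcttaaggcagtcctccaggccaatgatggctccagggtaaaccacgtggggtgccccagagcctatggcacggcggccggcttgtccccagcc
Cdx2: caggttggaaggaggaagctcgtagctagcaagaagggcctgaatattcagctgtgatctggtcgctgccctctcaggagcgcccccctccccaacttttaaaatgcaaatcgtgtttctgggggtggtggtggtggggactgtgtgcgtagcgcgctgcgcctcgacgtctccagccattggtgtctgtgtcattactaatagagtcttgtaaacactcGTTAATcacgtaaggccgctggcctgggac
Hnf4a upstream: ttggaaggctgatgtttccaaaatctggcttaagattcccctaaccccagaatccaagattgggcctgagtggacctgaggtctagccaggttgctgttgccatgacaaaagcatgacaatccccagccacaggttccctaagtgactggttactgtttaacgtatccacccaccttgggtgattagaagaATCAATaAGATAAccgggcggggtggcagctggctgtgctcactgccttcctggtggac
Hnf4a downstream: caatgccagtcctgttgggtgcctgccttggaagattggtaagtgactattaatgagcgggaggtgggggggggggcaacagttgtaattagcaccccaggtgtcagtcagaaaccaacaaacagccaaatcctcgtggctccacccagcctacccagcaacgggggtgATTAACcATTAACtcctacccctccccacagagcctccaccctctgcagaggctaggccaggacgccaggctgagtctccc

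The upstream Hnf4a promoter held ONECUT letters at bases -59 to -54 and GATA letters at bases -52 to -47, counted back from -1, the base before the start, with 1 base between them. Its downstream promoter held the HNF1 arm at 2 places, starting at -81 and -74, and the Cdx2 promoter held it at 1 place, starting at -30. The Pdx1 window held none of the letters, nor did the window of the same length at Gata5 (not printed). Of 32851 mouse promoter windows of this length, 26.5% held GATA letters, 25.5% CDX letters, 0.807% HNF4 letters, 6.72% ONECUT letters and 6.43% the HNF1 arm. The matches describe the letters of these windows, and the arrays, with 1 probe set for Hnf4a, did not measure which promoter was in use.

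All 9 factors differed between the distal and the proximal segment. In the distal segment Pdx1, Onecut2, Gata4, Gata6 and Hnf4g were lower, by at least 4.55-fold for Pdx1 and by between 4.84-fold for Onecut2 and 1.34-fold for Hnf4g, and Cdx2, Cdx1, Gata5 and Hnf4a were higher, by between 1.60-fold for Cdx2 and 1.33-fold for Hnf4a. All distal Pdx1 arrays lay under the intensity minimum of 50, so its fold is a lower bound, taken from the proximal mean over that minimum. The 9 calls stand beside 54.8% of all genes tested that were called in this comparison (limma with the pool as a block, adjusted p under 0.05, either direction). From proximal to middle 6 of 9 were called, where 25% of all genes were, and from middle to distal 8 of 9, where 34.6% were. The counts of 9 and 6 include Pdx1, which passed the intensity minimum only through proximal arrays, so that its calls were partly set by the filter. The 3 comparisons share arrays and are not independent of each other. In a bulk scraping, fewer cells of a type and less RNA per cell cannot be told apart, and this holds for every difference given here.

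**Figure D1:**
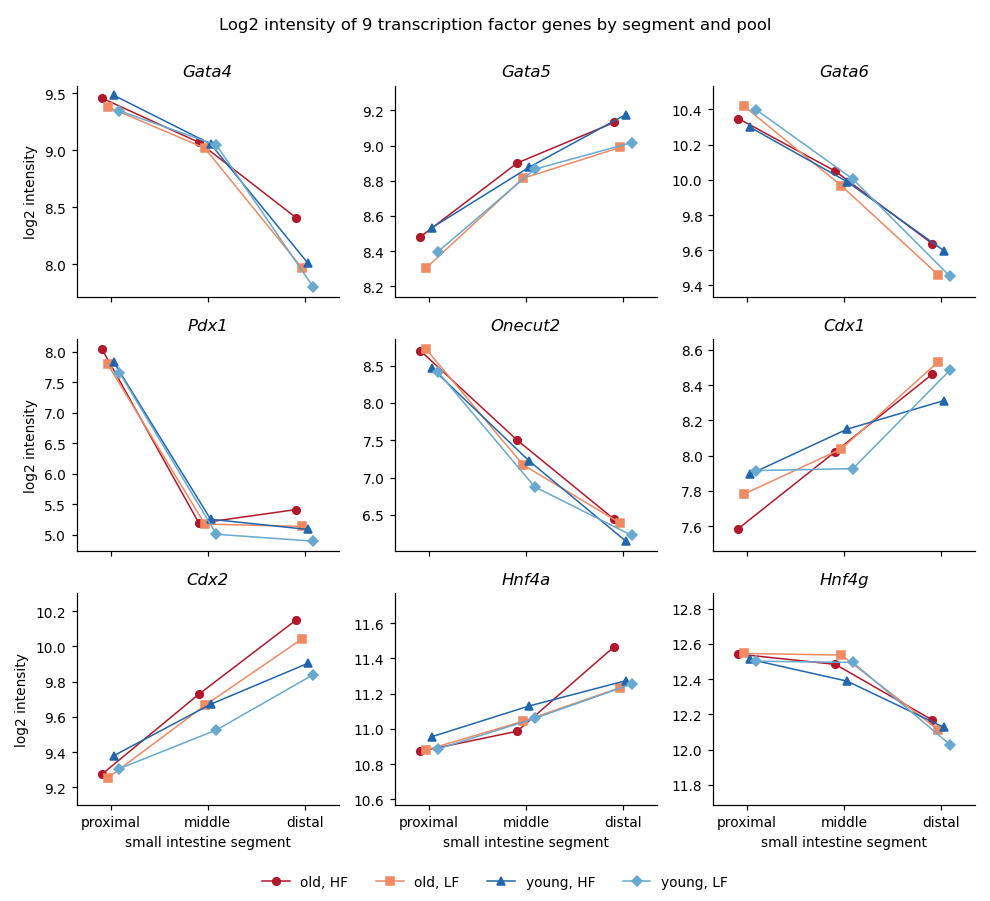
Log2 intensity of each gene (vertical axis, a scale of its own in each panel) in the proximal, middle and distal segment (horizontal axis), with 1 line per pool of mice. Pdx1 stepped down between the proximal and middle segment, Gata4 fell most between the middle and distal segment, and Cdx2 lay higher at each step in all 4 pools.

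Values per array are log2 intensities, given for each segment in the order old HF, old LF, young HF and young LF. Levels are compared between segments for a gene, not between genes. Gata4, a zinc finger factor, had 9.46, 9.38, 9.48 and 9.34 in the proximal segment, 9.07, 9.02, 9.05 and 9.04 in the middle segment, and 8.41, 7.97, 8.01 and 7.80 in the distal segment. The 3 segments did not overlap, and the middle arrays lay within a range of 0.05. Gata4 was 2.58-fold lower in the distal than in the proximal segment (log2 difference -1.37 ± 0.09 SE, adjusted p = 6.5e-07), with the larger part between middle and distal (-0.998 ± 0.09 SE, adjusted p = 2.08e-05) and the smaller between proximal and middle (-0.37 ± 0.09 SE, adjusted p = 0.0117). Without the old LF pool or without the young HF pool, the smaller step had an adjusted p of 0.0686 and 0.0741.

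Gata6, which shares enterocyte targets with Gata4 and is also needed in crypt cells, moved the same way but less. It had 10.35, 10.42, 10.30 and 10.40 in the proximal segment, 10.05, 9.97, 9.99 and 10.00 in the middle segment and 9.64, 9.46, 9.60 and 9.45 in the distal segment, and no segments overlapped. The distal level was 1.78-fold lower than the proximal one (log2 difference -0.83 ± 0.06 SE, adjusted p = 1.55e-06), in steps of -0.36 ± 0.06 SE (adjusted p = 0.00165) and -0.47 ± 0.06 SE (adjusted p = 0.000247).

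Gata5, the third GATA factor of endoderm, ran the other way. Its levels were 8.48, 8.30, 8.53 and 8.40 in the proximal segment, 8.90, 8.81, 8.88 and 8.87 in the middle segment and 9.13, 8.99, 9.18 and 9.02 in the distal segment. These groups did not overlap either. Gata5 was 1.57-fold higher in the distal than in the proximal segment (log2 difference 0.65 ± 0.05 SE, adjusted p = 2.61e-06), and here the first step (0.44 ± 0.05 SE, adjusted p = 0.000205) was the larger and the second (0.21 ± 0.05 SE, adjusted p = 0.00843) the smaller. Without the young HF pool the second step was 0.19, with an adjusted p of 0.0628.

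The GATA members thus moved in opposite directions in each of the 4 pools. Of the 5 other GATA family genes and cofactors that were looked up, Gata1, Gata2 and Zfpm2 stayed under the intensity minimum on every array. Gata3, best known from lymphocytes, had a log2 difference between distal and proximal of -0.11 ± 0.12 SE (adjusted p = 0.451). Zfpm1 (FOG1), a zinc finger protein that binds GATA factors, fell with Gata4 and Gata6, at 8.43, 8.38, 8.38 and 8.43 in the proximal segment, 8.01, 7.83, 8.00 and 7.90 in the middle segment and 7.88, 7.15, 7.34 and 7.11 in the distal segment (distal minus proximal -1.04 ± 0.11 SE, adjusted p = 2.5e-05).

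Pdx1, the homeodomain factor of duodenum and pancreas, was above the intensity minimum in the proximal segment only. Its proximal arrays had 8.04, 7.79, 7.83 and 7.66, the middle arrays 5.19, 5.18, 5.26 and 5.01, and the distal arrays 5.41, 5.14, 5.09 and 4.90. The proximal arrays lay apart from all others, and the middle and distal arrays overlapped. On a linear scale the proximal arrays lay between 202 and 264 intensity units and the others between 29.8 and 42.7, under the minimum of 50. Pdx1 was therefore at least 4.55-fold lower in the middle than in the proximal segment, and no p-value is given for this bound. No difference is given between the middle and distal levels. Pdx1 entered the test only through the segment where it was high, so that its call between segments was partly set by the filter. It was called to the same side when no filter was applied.

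The proximal arrays also carried RNA of neighbouring organs. Of 29 genes of pancreas acinar cells, 25 had a probe set, and their summed intensity was between 65120 and 129588 in the proximal arrays, between 10884 and 13219 in the middle arrays and between 9810 and 10966 in the distal arrays. Some of them, such as Zg16 and Reg1, are genes of the gut epithelium too. Within the proximal segment the sum was highest in the young HF array (129588), where Pdx1 had 7.83, and 91164 in the old HF array, where Pdx1 was highest at 8.04. In the middle segment the carboxypeptidase Cpa1 had 6.92 in the young LF array and between 5.34 and 5.52 in the other arrays, and Pdx1 was under the intensity minimum there as in the other middle arrays. Islet genes, which PDX1 controls in beta cells, were low, with Ins2 at 5.71, 5.21, 6.09 and 5.43 in the proximal segment and a sum over 7 of 8 genes between 331 and 414 there, against 280 to 300 in middle and 265 to 318 in distal arrays. The part of pancreas RNA in the Pdx1 level was not tested.

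Brunner's glands lie in the proximal duodenum, and their marker Tff2 had 10.23, 8.58, 10.91 and 8.89 in the proximal segment and at most 5.30 elsewhere. The summed stomach genes (9 of 10 with a probe set) reached 729 in the old HF and 1350 in the young HF proximal array, against 336 in the old LF and 381 in the young LF array. Pdx1 was higher on HF than on LF in these arrays by 0.25 in old and 0.17 in young mice, and Tff2 and the stomach sum were higher on HF in the same arrays. Their part in the Pdx1 difference was not tested.

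Onecut2, a cut homeodomain factor related to HNF6, fell at both steps. It had 8.70, 8.72, 8.47 and 8.42 in the proximal segment, 7.50, 7.17, 7.23 and 6.88 in the middle segment and 6.44, 6.39, 6.15 and 6.23 in the distal segment. No segments overlapped. The distal level was 4.84-fold lower than the proximal one (log2 difference -2.28 ± 0.08 SE, adjusted p = 1.39e-08), with -1.38 ± 0.08 SE (adjusted p = 2.38e-06) over the first step and -0.89 ± 0.08 SE (adjusted p = 2.23e-05) over the second. Its relative Onecut1 and the ParaHox genes Cdx4, Gsx1 and Gsx2 stayed under the intensity minimum on every array. Onecut3 was near it, with values between 5.78 and 6.10, and had a distal minus proximal difference of 0.08 ± 0.05 SE (adjusted p = 0.206).

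Both CDX genes rose towards the ileum. Cdx2, required for intestinal identity in the mouse, had 9.27, 9.25, 9.38 and 9.31 in the proximal segment, 9.73, 9.66, 9.67 and 9.53 in the middle segment and 10.15, 10.04, 9.90 and 9.84 in the distal segment, without overlap. The distal segment was 1.60-fold higher than the proximal one (log2 difference 0.68 ± 0.07 SE, adjusted p = 1.42e-05), and the steps were of like size, 0.34 ± 0.07 SE (adjusted p = 0.00436) and 0.34 ± 0.07 SE (adjusted p = 0.00346).

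Cdx1, which in the mouse epithelium is best known from crypts, had 7.59, 7.78, 7.89 and 7.91 in the proximal segment, 8.02, 8.04, 8.15 and 7.93 in the middle segment and 8.46, 8.53, 8.31 and 8.48 in the distal segment. The middle arrays began 0.01 above the highest proximal one, and the distal arrays lay apart. The distal level was 1.57-fold higher than the proximal one (log2 difference 0.65 ± 0.08 SE, adjusted p = 8.85e-05). Of the steps, 0.41 ± 0.08 SE between middle and distal was called (adjusted p = 0.00375), and 0.24 ± 0.08 SE between proximal and middle was not (adjusted p = 0.0616).

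The HNF4 paralogs, which bind the same DNA sequence, moved in opposite directions. Hnf4a had 10.87, 10.88, 10.96 and 10.89 in the proximal segment, 10.99, 11.04, 11.13 and 11.06 in the middle segment and 11.47, 11.23, 11.27 and 11.25 in the distal segment, without overlap. Hnf4g, the paralog that is more confined to the gut, had 12.54, 12.55, 12.51 and 12.50 in the proximal segment, 12.48, 12.54, 12.39 and 12.49 in the middle segment and 12.17, 12.11, 12.13 and 12.03 in the distal segment. For Hnf4g the proximal and middle arrays overlapped, and the distal arrays lay below both.

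Distal minus proximal was 0.41 ± 0.06 SE for Hnf4a (1.33-fold, adjusted p = 0.000326) and -0.42 ± 0.05 SE for Hnf4g (1.34-fold lower, adjusted p = 7.32e-05). With the kept genes quantile-normalized again they were 0.60 for Hnf4a and -0.25 for Hnf4g, so that their relative size depends on the scaling while the directions did not change. Between middle and distal both were called, Hnf4a at 0.25 ± 0.06 SE (adjusted p = 0.0116) and Hnf4g at -0.37 ± 0.05 SE (adjusted p = 0.00046). Between proximal and middle neither was, with 0.16 ± 0.06 SE for Hnf4a (adjusted p = 0.0995) and -0.05 ± 0.05 SE for Hnf4g (adjusted p = 0.533). Without the old LF pool, the middle to distal difference of Hnf4a was 0.27, with an adjusted p of 0.0504, and with the second quantile normalization this difference was 0.39 for Hnf4a and -0.24 for Hnf4g.

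**Figure D2:**
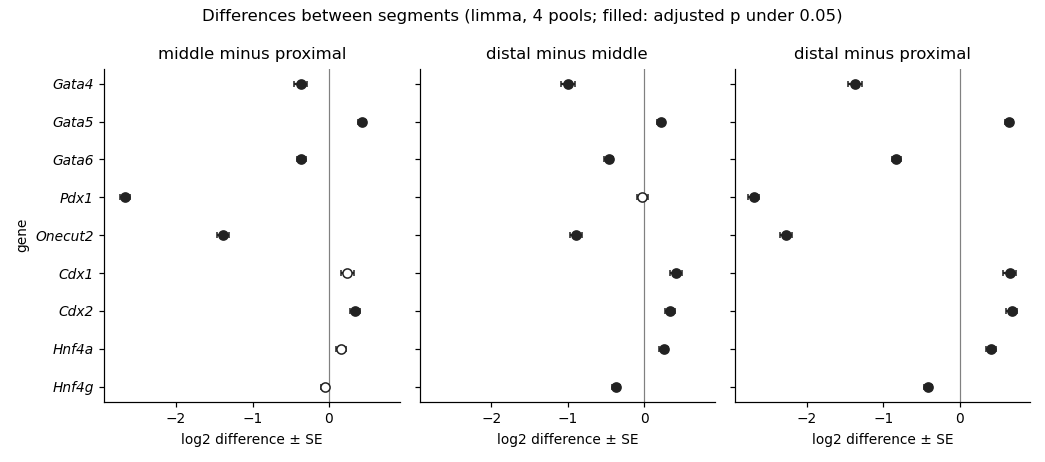
Log2 difference with its standard error (horizontal axis) for each gene (vertical axis) between segments, from limma over 4 pools. Filled points passed an adjusted p of 0.05, which were 6 of 9 for middle minus proximal, 8 of 9 for distal minus middle and 9 of 9 for distal minus proximal. Pdx1 is drawn at its fitted differences, although its middle and distal arrays lay under the intensity minimum. Its calls against the proximal segment were partly set by the filter.

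Counting arrays, the 4 distal and the 4 proximal arrays did not overlap for 9 of 9 genes, beside 46.8% of all genes tested. Middle and proximal arrays did not overlap for 8 of 9, all but Hnf4g, beside 26.7%, and distal and middle arrays for 8 of 9, all but Pdx1, beside 29.9%. Pdx1 passed the intensity minimum only through proximal arrays, so that its lack of overlap with them was partly set by the filter. Every one of the 4 pools gave the same direction for each gene between distal and proximal. The differences within pools were closest together for Gata5 (between 0.62 and 0.68) and Hnf4g (between -0.47 and -0.37) and spread most for Gata4 (between -1.55 and -1.05).

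Across the 12 arrays, Gata4 and Gata6 had a Pearson correlation of 0.97, Cdx1 and Cdx2 of 0.93, Gata4 and Gata5 of -0.82, and Hnf4a and Hnf4g of -0.86. These coefficients describe 12 arrays from 4 pools that share their segments, and mostly restate the differences between segments. Among all other genes kept, the patterns most like Gata4 were those of trehalase (Treh, r = 0.99), the nuclear receptor Nr1i3 and Cyp2d22 (r = 0.99 each). For Pdx1 they were the calcium-binding protein S100g (r = 0.997), the metal transporter Slc30a10 (r = 0.99) and 4930402H24Rik (r = 0.99). S100g, calbindin-D9k of the duodenum, had the same single step, with 11.12, 10.60, 10.67 and 10.53 in the proximal segment and at most 6.09 in the others.

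The closest patterns to Gata5 were Dpep1, Flrt3 and Bcl2l15 (r of 0.99, 0.99 and 0.98), to Gata6 Arsg, Lrrc8b and Sdhc (0.99 each), and to Onecut2 Ap1s3, Ces1e and Zfp410 (0.99 each). To Cdx1 they were 2610528A11Rik, Kif21a and Pof1b (0.98, 0.97 and 0.97), and to Cdx2 Atp13a3, L1cam and the nuclear receptor Nr5a2 (0.99 each). For Hnf4a they were Prdm4, Gfpt1 and Vsig10 (0.98 each), and for Hnf4g Plpp1, Cyp3a25 and Gdpd2 (0.99 each).

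Other transcription factors gave the setting of these steps. Of 27 other factors of the gut epithelium 22 were tested, of which 10 rose and 3 fell from proximal to distal, beside the 54.8% of all genes that were called, with a median difference of 0.11 beside 0.02 over all genes. The largest were Ehf, an ETS factor of epithelia (2.05 ± 0.10 SE, adjusted p = 1.47e-07), the bile acid receptor Nr1h4 (1.27 ± 0.08 SE, adjusted p = 8.4e-07), Nr5a2, which acts with it on bile acid genes (1.16 ± 0.08 SE, adjusted p = 8.01e-07), and the forkhead factor Foxa1 (0.93 ± 0.09 SE, adjusted p = 1.86e-05). Ehf and Nr5a2 rose at both steps, like Cdx2. Nr1h4 was 0.05 ± 0.08 SE higher in the middle than in the proximal segment (adjusted p = 0.728).

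Of 39 Hox genes, which pattern the body axis and in the gut are known mainly from the mesenchyme, 37 had a probe set and 9 passed the intensity minimum. Of these, 5 (Hoxb4, Hoxb5, Hoxb6, Hoxb9 and Hoxc8) passed it only through distal arrays, so that a rise into the distal segment and the lack of a first step were partly set by the filter, and no count over the 9 is given. Hoxb9 had 6.94, 6.72, 6.82 and 6.85 in the distal segment and at most 5.50, under the minimum, elsewhere. Against that minimum it was at least 2.28-fold higher in the distal than in the middle segment, and Hoxb5 was at least 1.73-fold and Hoxb6 at least 1.56-fold higher. Smooth muscle genes rose distally as well, 9 of 10 from middle to distal with a median of 0.93, beside 34.6% of all genes called. Lmod1, 1 of the 10, passed the filter only through distal arrays. The part of smooth muscle genes in the Hox differences was not tested. Of the 9 regional factors, Cdx1, Hnf4a and Hnf4g were called from middle to distal and not from proximal to middle. Cdx1 and Hnf4a were nevertheless higher in the middle than in the proximal segment in all 4 pools. Over that first step Cdx1 was called under 2 and Hnf4a under 3 of 13 alternatives.

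**Figure D3:**
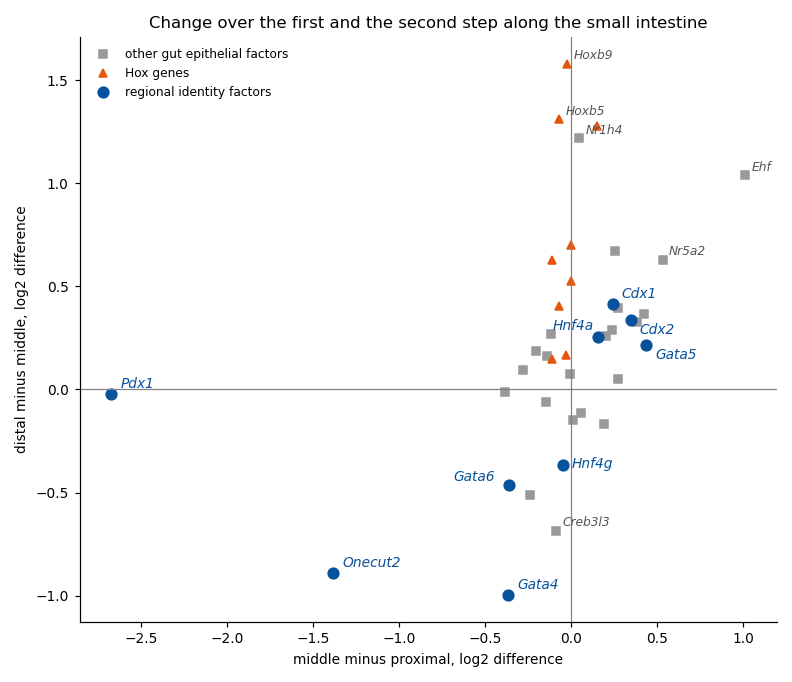
Log2 difference over the first step (horizontal axis, middle minus proximal) and over the second (vertical axis, distal minus middle) for the 9 regional factors (circles), 9 Hox genes (triangles) and 22 other factors of the gut epithelium (squares). Pdx1 lies at -2.67 and -0.02 and Gata4 at -0.37 and -0.998. Fitted differences are drawn also for Pdx1 and the 5 Hox genes that were above the intensity minimum in 1 segment only. Both axes use the middle arrays, so that an error in these moves a point along both.

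Genes known from proximal and from ileal enterocytes were looked up to describe the segments. The lists were chosen with earlier results of these data known, so they are not an independent check of segment position. Of 20 proximal enterocyte genes 19 were tested, and 19 fell from proximal to distal (median -1.56), 12 of them being called between proximal and middle. Slc46a1, the folate transporter (-4.34), S100g (-4.98), the iron reductase Cybrd1 (-3.69) and the glucose transporter Slc2a2 (-3.33) fell most. Of 15 ileal genes 13 rose between proximal and distal (median 1.50), led by the bile acid carriers Fabp6 (7.81) and Slc10a2 (5.59), and 2 fell, the lectin Mbl2 (-1.06) and the nuclear receptor Nr0b2 (-1.90). Genes linked to HNF4 in enterocytes fell more often than they rose, 12 against 3 of 22 tested (median -0.24), with Treh, Pck1 and Apoc3 at -1.97, -1.67 and -1.51 and the protease Mep1a at 2.26. Genes linked to CDX were split, with 5 that rose and 5 that fell of 15 tested (median -0.03). These list counts stand beside 54.8% of all genes called between distal and proximal, 3254 higher and 3278 lower, and 25% between proximal and middle. No test set the lists against all genes, and the counts are not a result about the factors.

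In the middle segment some of the ileal genes were uneven between arrays, most of all Fabp6, Mbl2 and Slc10a2, and others, such as Slc51b (between 10.28 and 10.57), were not. Slc10a2 had 7.79, 6.84, 9.94 and 7.48 and Fabp6 had 7.58, 8.84, 11.31 and 9.49 in the old HF, old LF, young HF and young LF middle arrays, and Gata4 had 9.07, 9.02, 9.05 and 9.04. In the young HF array, where both ileal genes were highest, Cdx2 had 9.67 and Onecut2 7.23, each inside the range of the other middle arrays. Hnf4g (12.39) was lowest there, and Hnf4a (11.13) and Cdx1 (8.15) were highest.

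The labelled tissue showed in its markers. All 10 epithelial genes were above the minimum, with a summed intensity between 41789 and 43000 for proximal, 46796 and 48885 for middle and 51243 and 52082 for distal arrays, so that the sum was highest in the distal arrays, where Cdx1, Cdx2, Gata5 and Hnf4a were higher and the other 5 factors lower than in the proximal segment. Smooth muscle genes summed to between 1105 and 1775, between 1551 and 2468, and between 1989 and 5691 in the same segments. The part of tissue make-up in the members' differences was not tested.

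With age, Onecut2 was the only one of the 9 genes that was called, and only over pool means. It was 0.24, 0.27 and 0.29 higher in old than in young mice on HF in the proximal, middle and distal segment, and 0.30, 0.29 and 0.17 higher on LF. All 6 pairs of arrays pointed the same way. Averaged over the segments of a pool, the difference of old minus young was 0.26 ± 0.05 SE (1.20-fold, adjusted p = 0.0416), beside 2.88% of all genes called in this comparison and an unadjusted p under 0.05 for 2 of the 9, beside 17.8% of all genes. This fit has 1 residual degree of freedom, and its adjusted p was between 0.0113 and 0.131 over 10 alternatives, of which 4 kept the call.

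Within single segments none of the 9 genes was called for age, where the share of all genes called was 0.109% for proximal, 0.0252% for middle and 0.654% for distal arrays. At an unadjusted p under 0.05 they were 2, 1 and 4 of 9, beside 8.68%, 8.79% and 19% of all genes. Those 4 in the distal segment were Gata4 (0.28 ± 0.08 SE, adjusted p = 0.162), Pdx1 (0.28 ± 0.08 SE, adjusted p = 0.166, with all arrays under the intensity minimum), Onecut2 (0.23 ± 0.07 SE, adjusted p = 0.184) and Cdx2 (0.22 ± 0.07 SE, adjusted p = 0.181). In the proximal segment they were Onecut2 (0.27 ± 0.07 SE, adjusted p = 0.273) and Cdx1 (-0.22 ± 0.09 SE, adjusted p = 0.53), and in the middle segment Onecut2 (0.28 ± 0.07 SE, adjusted p = 0.348).

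Hnf4g was higher in old mice in all 6 pairs too, by between 0.03 and 0.09. These 2 genes of 9, Onecut2 and Hnf4g, stand beside 6.09% of all genes that were higher in old mice in every pair. The pairs come from only 4 pools of mice and do not count as 6 replicates. Smooth muscle genes were lower in old mice, 7 of 10 called over pool means with a median of -0.73, and so were fibroblast genes, 9 of 9 tested with a median of -0.47. These counts stand beside 2.88% of all genes called in this comparison. In each of these lists 1 gene passed the intensity minimum only through distal arrays. The median of the 10 epithelial genes was -0.02. The part of this in the Onecut2 difference was not tested.

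**Figure D4:**
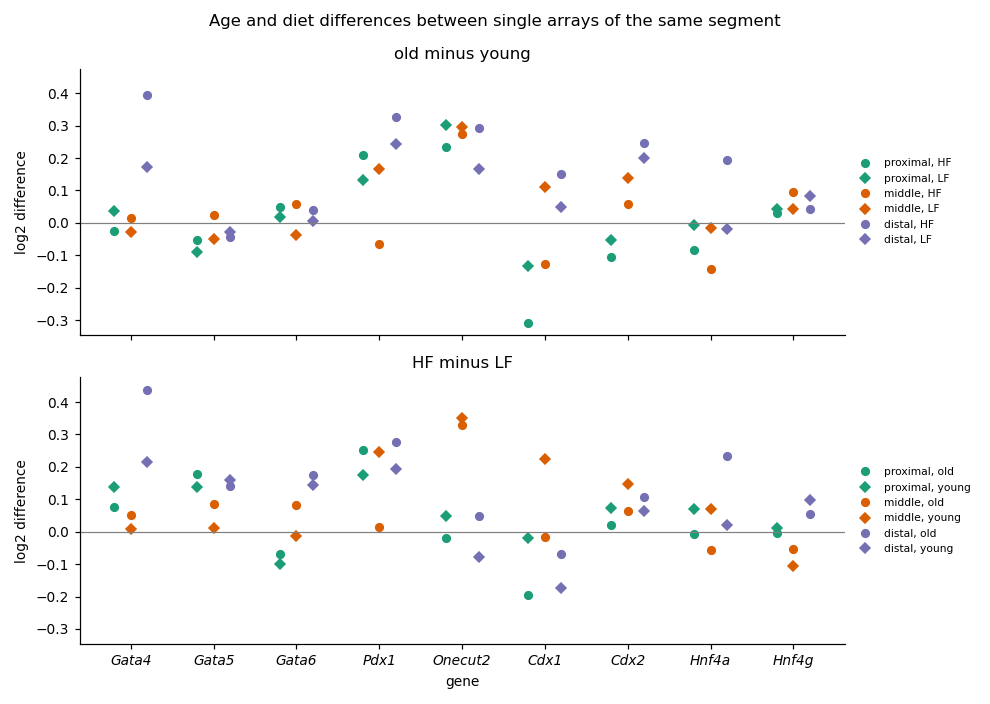
Log2 difference between single arrays of the same segment (vertical axis) for each gene (horizontal axis), old minus young on HF or LF (upper panel) and HF minus LF in old or young mice (lower panel), coloured by segment. The 6 points of Onecut2 lie between 0.17 and 0.30 for age, and for diet its 2 middle points lie at 0.33 and 0.35.

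For diet, none of the 9 genes was called in any segment, where the share of all genes called was 0.319% for proximal, 2.54% for middle and 0.528% for distal arrays, nor over pool means, beside 5.64%. An unadjusted p under 0.05 was reached by 1, 1 and 2 of 9 in the segments, beside 10.8%, 18% and 17.5% of all genes, and by 4 over pool means, beside 23.3%. Onecut2 in the middle segment came closest, at 7.50 on HF and 7.17 on LF in old mice and 7.23 on HF and 6.88 on LF in young mice. The difference was 0.34 ± 0.07 SE (adjusted p = 0.0607), and it passed under 2 of 13 alternatives. In the proximal and distal segment its HF minus LF differences were 0.01 and -0.01.

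Gata4 was higher on HF in all 6 pairs, by between 0.01 and 0.44, with the largest value in the distal segment of old mice (8.41 on HF and 7.97 on LF) and a distal difference of 0.33 ± 0.08 SE (adjusted p = 0.139). Gata5, by between 0.01 and 0.18, and Cdx2, by between 0.02 and 0.15, were also higher on HF in every pair. These 3 of 9 genes stand beside 5.62% of all genes. Pdx1 was higher on HF in the proximal pairs as given above. Its middle and distal pairs had the same sign but compare arrays under the intensity minimum, and its difference over pool means, 0.19 ± 0.05 SE (adjusted p = 0.0688), includes those arrays.

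The distal old HF array held the highest distal level of Gata4 (8.41), Gata6 (9.64), Onecut2 (6.44), Cdx2 (10.15), Hnf4a (11.47) and Hnf4g (12.17). Pdx1 was highest there as well (5.41), with all its distal arrays under the intensity minimum. The share of all genes that were highest in that array was not counted. Zfpm1 was highest there too, at 7.88 against 7.15, 7.34 and 7.11 in the old LF, young HF and young LF distal arrays, and so was Treh, at 9.49 against 8.80, 9.06 and 8.62. That array had the lowest summed smooth muscle level of the distal arrays, 1989 against 3151 in old LF, 4199 in young HF and 5691 in young LF mice, and the lowest fibroblast sum, 1131. The part of this in the levels of the regional factors was not tested. Without the old HF pool, all 9 genes were still called between distal and proximal, and the same 8 between distal and middle.

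Whether an age or diet difference itself differed between segments was tested in the same fit. None of the 9 genes was called. For age the share of all genes called was 0% between distal and proximal, 0% between distal and middle and 0.0252% between middle and proximal, and for diet it was 0.0503%, 0.0755% and 0.0252%. At an unadjusted p under 0.05 there were 3, 1 and 0 of 9 genes for age, beside 8.83%, 11.6% and 4.96% of all genes, and 1, 2 and 1 for diet, beside 9.51%, 13.3% and 6.73%. With 3 residual degrees of freedom, these tests do not show that the differences were alike in the segments.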

How the data were processed

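The deposited values are log2 intensities per probe set, which the authors made with RMA (which corrects background, quantile-normalizes the arrays and summarises probes; version not given in the sources used here), per the submitters' processing notes. Scaling in this way makes values relative to the other genes of an array. Of 35556 probe sets 21789 carry 1 gene symbol, 1621 several and 12146 none in the platform annotation, and for each of 19938 genes the brightest probe set with 1 symbol was used. Array medians lay between 5.57 and 5.70. Genes over an intensity of 50 on at least 1 array were kept, as in the study, and 25 pancreas acinar genes were removed, which left 11923.

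limma 3.58.1 in R 4.3.3 (statmod 1.5.0) was fitted to all kept genes, with Benjamini-Hochberg adjustment over all of them. Segment differences used the pool as a fixed block (6 residual degrees of freedom), age and diet within segments 9 coefficients (3 residual degrees of freedom), in which the diets serve as repeats for age and the ages as repeats for diet, and age and diet over pool means 1 residual degree of freedom. For segments, p-values measure how the segment differences vary between the 4 pools. Each age and diet has 1 pool, so for age and diet they rest on how far the age difference varies with diet and the diet difference with age. The 9-coefficient fit also treats the 3 arrays of a pool as independent. No p-value measures the spread between mice. The fits were run on simulated arrays with independent values and the same standard deviation for every gene. These had no pool effect, so they do not check the fits for unreplicated pools. Other steps used pandas 2.3.3, numpy 2.4.6 and matplotlib 3.10.9 in Python 3.11.15. All 9 members were named. Of each list at most 4 genes with the largest differences were named, and for each member the 3 most correlated genes. Zg16, Reg1, Mbl2, Nr0b2, Slc51b, Lmod1, Hoxb4, Tff2, Ins2, Cpa1 and Zfpm1 beside single arrays, and the genes given under the intensity minimum, were named after their values were seen. The members and gene lists were chosen with earlier results of these data known. Promoter windows are RefSeq sequences for GRCm38.p6; 5 windows of 4 members were used here.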

Additional observations from a re-analysis of the deposited data

Results flagged for a closer look

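Among the 9 genes in 3 segments, 27 sets of 4 arrays were looked at for an array far from the other 3, and Hnf4a gave both of the 2 that were found. Its distal old HF array (11.47) lay 0.19 above the next distal array, 0.831 of the range of the 4 arrays, and its proximal young HF array (10.96) lay 0.07 above the next, 0.840 of a range of only 0.08. The 4 arrays differ in age and diet, and chance gives about 1 such array in 20 sets.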

How the results depend on the processing

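For the segments, all alternatives kept the counts of genes called within 1.5 times of 9, 6 and 8 of 9. The filter, the acinar genes, median centring, averaging of probe sets and the fit without the pool block left them at 9, 6 and 8. Quantile normalization gave 7 and an intensity trend with robust variance 8 between proximal and middle, and with 1 pool left out the counts were 9 between distal and proximal, between 5 and 7 between middle and proximal and 7 or 8 between distal and middle. No call between segments changed direction. The count for age over pool means was 0 in place of 1 without the filter, with arrays centred on their medians, with quantile normalization, and without the proximal, the middle or the distal segment, because Onecut2 then had an adjusted p between 0.0591 and 0.131 at a difference between 0.25 and 0.28. The cause was not tested. For diet, 1 gene was called in place of 0 in the middle segment (Onecut2) with an intensity minimum of 100 and with the intensity trend, in the distal segment (Gata4) with the intensity trend, and over pool means with the minimum of 100 (Pdx1) and with the intensity trend (Gata4). No paired analysis by replicate number was possible because each group holds 1 array, and the pool stood in as the block. Pooled RNA hides the spread between mice, and values near an intensity of 50, such as Pdx1 in the middle and distal segment, are close to background, so that small differences there cannot be resolved.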

Other observations

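Among 16 regional transcription factors of the gut mesenchyme, 10 were tested, with a median difference between distal and proximal of -0.01, beside 0.02 over all genes. Of these, 1 passed the intensity minimum only through proximal arrays and 1 only through distal arrays. Their differences between segments were partly set by the filter, and no count over the 10 is given. Meis2, a homeodomain cofactor of PBX and HOX proteins, had 7.27, 7.15, 6.53 and 6.84 in the proximal segment (old HF, old LF, young HF and young LF), between 5.17 and 5.30 in the middle and between 4.93 and 5.25 in the distal segment. All its middle and distal arrays lay under the intensity minimum, so that it passed the filter only through its proximal arrays. Against that minimum it was at least 2.47-fold lower in the middle than in the proximal segment, and no p-value is given for this difference. The nuclear receptor Nr2f2 rose by 0.88 from proximal to distal, of which 0.63 lay between middle and distal. Nkx2-3, known from the mesenchyme of the midgut, was 0.32 lower in the distal than in the proximal segment (adjusted p = 0.0381).

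Among genes used to look for colon RNA, Car1, a carbonic anhydrase of colonocytes, was uneven in the distal segment, with 7.05 in the old HF, 10.45 in the old LF, 5.55 in the young HF and 7.87 in the young LF array, and at most 4.93 elsewhere. Cdx2 had 10.15, 10.04, 9.90 and 9.84 and Cdx1 8.46, 8.53, 8.31 and 8.48 in the same arrays. The summed colon genes (9 of 10 with a probe set) were 1338, 2707, 1544 and 1535 there, in another order than Car1. Of the 5 colon genes tested, Car1 passed the intensity minimum only through distal arrays. Its differences between segments were partly set by the filter, and no count over the 5 is given. The part of colon RNA in the Cdx1 and Cdx2 levels was not tested. Hoxb13, a gene of the hindgut, stayed under the intensity minimum on every array.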
